A study of Rattus norvegicus with 6 samples.

Results

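Forkhead genes encode transcription factors that share the winged-helix DNA-binding domain and bind an A- and T-rich core motif. The FoxO factors (Foxo1, Foxo3, Foxo4) are held in the cytoplasm after phosphorylation by Akt and Sgk kinases and otherwise switch on genes of cell cycle arrest, stress defence and autophagy. Foxm1 drives late cell cycle genes, Foxc1 and Foxc2 act in the mesenchyme of the developing heart and vessels, and Foxp, Foxk, Foxn and Foxj factors act largely as regulators of cell growth, metabolism and muscle genes. The 10 genes described here were chosen by name as the listed members of this family, namely Foxc1, Foxc2, Foxo1, Foxo3, Foxo4, Foxp1, Foxk1, Foxm1, Foxn3 and Foxj3, and they were found by gene symbol as 10 of the 16319 rows of the count table.

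RNA-seq was carried out in H9c2 cells, a myoblast line derived from embryonic rat heart, with 3 WT libraries and 3 Nono-KO libraries. The Nono-KO line carries a CRISPR-Cas9 disruption of Nono, a nuclear RNA- and DNA-binding protein, and was selected with puromycin and expanded from a single clone. A knockout effect and a property of that clone therefore cannot be told apart in these libraries. The labels do not say whether the WT cells received the control plasmid of the study. The comparison asks how transcript levels differ where Nono is lost.

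The 6 libraries held 17612958 to 19253858 counts each. Counts of Nono itself were 7329, 5884 and 5519 in WT against 109, 94 and 96 in Nono-KO, a 59.1-fold lower level. The correlation of libraries was r = 0.985 to 0.993 for WT pairs, 0.993 to 0.995 for Nono-KO pairs and 0.890 to 0.918 for mixed pairs, and WT replicate 1 stood apart from the other WT libraries on the second principal component (29.1 against -15.3 and -11.1). Of 11 myoblast markers, 7 had a row, and Myf5, Myf6, Pax7 and Msc had none. Myod1, Cdh15 and Itga7 were detected in every library, and Chrna1, with 2 to 13 counts, was not tested. Of 6 myoblast markers tested, 4 were higher in Nono-KO and 0 were lower. The higher ones were Myog (log2 fold change 4.03, SE 0.16), Des (2.13, SE 0.15), Mymk (1.69, SE 0.16) and Itga7 (0.49, SE 0.14), and for Itga7 the groups overlapped. At an adjusted p under 0.05, 34.2% of all tested genes were higher and 38.1% were lower, the background for every marker count given here. The 14 cardiomyocyte markers were mixed. Of these, Myh7, Nppa, Ryr2, Myl7 and Tbx5 had at most 7 counts in any library, whereas Tnnt2 (269 to 2583 counts), Nkx2-5 (356 to 758) and Gata4 (283 to 362) were expressed. Tnnt2 was far lower in WT replicate 1 (269 counts) than in WT replicates 2 and 3 (1459 and 1492). It did not pass the test (log2 fold change 1.14, SE 0.66, adjusted p = 0.180). Of 7 cardiomyocyte markers tested, 4 were higher in Nono-KO, namely Mybpc3 (log2 fold change 5.09, SE 0.38), Pln (2.82, SE 0.43), Actn2 (2.81, SE 0.39) and Nkx2-5 (0.96, SE 0.12). WT counts were only 2, 2 and 9 for Mybpc3, 3, 3 and 3 for Actn2 and 2, 20 and 18 for Pln. Mybpc3 and Actn2 would not have passed the filter on low counts by their WT counts alone, so their fold changes are not precise. Nppb, with 13, 7 and 4 counts in WT against 1, 0 and 1 in Nono-KO, was filtered out. Summed marker levels differed between the groups: myoblast markers totalled 1147 to 1589 CPM (counts scaled to a common library size) in WT and 1713 to 2089 CPM in Nono-KO, cardiomyocyte markers 49.0 to 128 CPM and 185 to 215 CPM, smooth muscle markers 6765 to 7628 CPM and 14629 to 15710 CPM, and fibroblast markers 37015 to 44842 CPM and 28396 to 33472 CPM. Endothelial markers totalled 26.7 to 33.0 CPM in WT and 45.2 to 60.4 CPM in Nono-KO. Leukocyte markers totalled 39.0 to 48.3 CPM in WT and 78.9 to 84.0 CPM in Nono-KO. Such sums hide members of opposite direction. Of 2 endothelial markers tested, Egfl7 was higher (log2 fold change 0.99, SE 0.13) and Vwf lower (-2.07, SE 0.29). Of 4 leukocyte markers tested, Cd3e was higher (3.09, SE 0.21), Csf1r was lower (-1.87, SE 0.29), and Cd68 and Cd14 did not pass. Of 7 smooth muscle markers tested, 5 were higher and Myocd was lower (-1.62, SE 0.28). The fibroblast sum was mostly collagen RNA, with WT means of 18295 CPM for Col1a1 and 18484 CPM for Col1a2. Of 4 fibroblast markers tested, 3 were lower (Col1a1, Col1a2 and Postn) and Col3a1 did not pass. Pdgfra, Dcn, Lum and Dpt had at most 9 counts in any library. Whether these differences have a part in the forkhead levels below was not tested.

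All 10 forkhead genes had enough counts to be tested, and 8 were lower in Nono-KO, 1 was higher and 1 did not pass the test at an adjusted p under 0.05. In bulk RNA, fewer cells of a type and less RNA per cell cannot be told apart. Among all 12028 genes tested, 38.1% were lower and 34.2% were higher by the same rule, 72.2% in all. The median log2 fold change (Nono-KO relative to WT) of the 10 genes was -0.84, against -0.05 over all tested genes. By the study's own thresholds for differential expression, a log2 fold change beyond 1 in either direction with an adjusted p under 0.01, 4 of the 10 were lower (Foxc2, Foxo1, Foxn3 and Foxj3) and 0 were higher, with 18.7% and 10.8% of all tested genes in these classes and 29.5% in either. WT and Nono-KO libraries did not overlap for 9 of the genes, 8 of them lower in Nono-KO, where 39.0% of all tested genes were lower without overlap, 36.1% were higher without overlap and 75.1% were one or the other. Without WT replicate 1, 8 of the 10 were again lower and 1 higher.

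**Figure D1:**
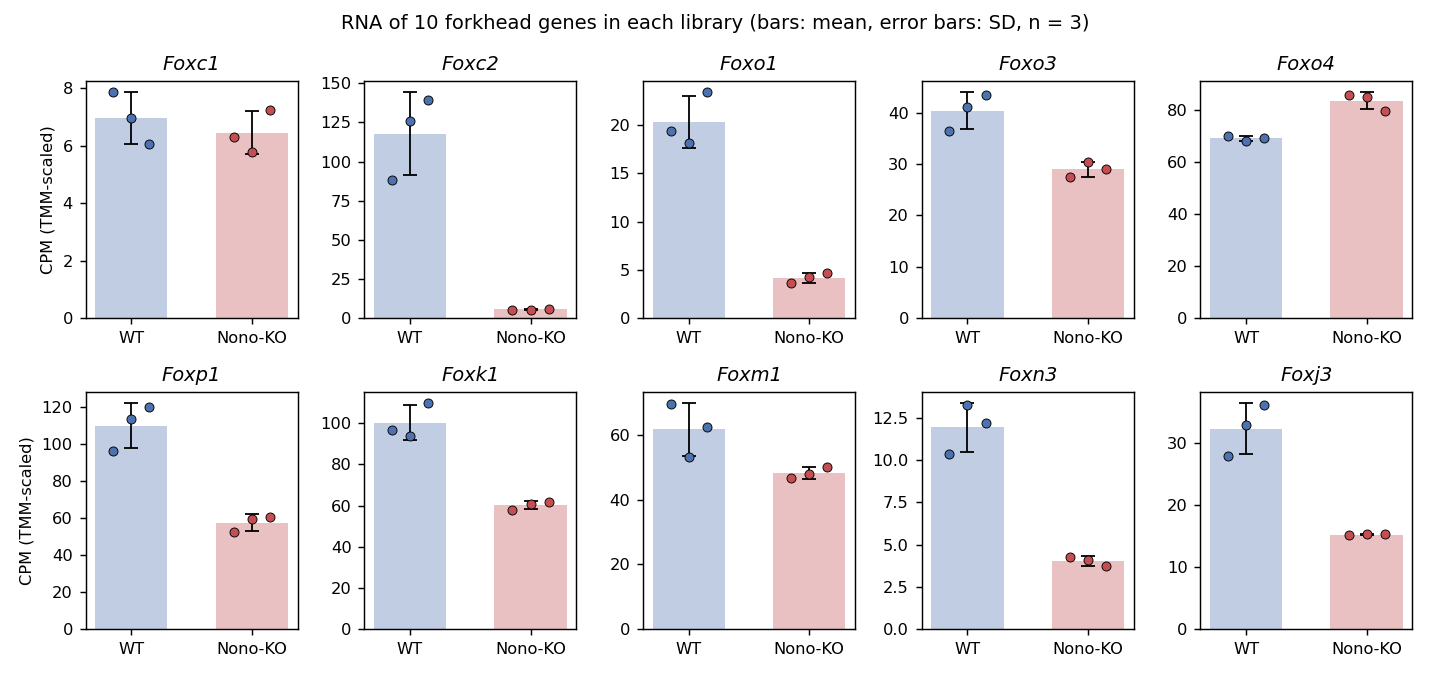
CPM of each of the 10 forkhead genes in every library, on linear axes that start at 0 and differ between panels. Points are libraries, bars are means and error bars are SDs of 3 libraries. WT and Nono-KO points overlap only in the Foxc1 panel, and Foxo4 is the single gene with the higher Nono-KO bar.

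The pair Foxc1 and Foxc2, related factors that act together in heart outflow tract, vessel and mesenchyme development, differed from each other most among the 8 paralog pairs compared here. Foxc2 had 1769, 2352 and 2501 counts in WT against 90, 99 and 115 in Nono-KO. Every WT library was far above every Nono-KO library, with WT replicate 1 the lowest of the WT group. The mean fell from 118 ± 26.5 CPM to 5.62 ± 0.42 CPM (SD, n = 3 each), a 20.9-fold lower level, with a log2 fold change of -4.38 (SE 0.18, 95% interval -4.77 to -3.996, adjusted p = 9.49e-09). A fall of at least 16-fold was seen in 37 of all tested genes, or 0.308%. Leaving out any 1 library gave -4.56 to -4.25, with -4.56 without WT replicate 1.

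Foxc1 had 158, 130 and 109 counts in WT against 108, 104 and 137 in Nono-KO. The groups overlapped, since Nono-KO replicate 3 was above WT replicates 2 and 3. The means were 6.96 ± 0.90 CPM and 6.45 ± 0.74 CPM. The log2 fold change was -0.11 (SE 0.17, adjusted p = 0.581), and its 95% interval of -0.48 to 0.27 limits any fall to less than that seen for Foxc2. Within each library the log2 ratio of Foxc2 to Foxc1 counts was 3.48, 4.17 and 4.51 in WT and -0.26, -0.07 and -0.25 in Nono-KO. The ratio thus dropped by 4.25 on the log2 scale, from 4.06 ± 0.53 to -0.19 ± 0.11, and the groups did not overlap. Raw counts are not corrected for transcript length, so only the shift of such a ratio between groups is read, not its size in one library.

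Both Foxc genes lie next to other forkhead genes, and the RefSeq gene order of the rat assembly GRCr8 was used to ask whether neighbours differed with them. Around Foxc2 the order of genes with counts is Cox4i1, Irf8, Foxf1, Mthfsd, Foxc2, Foxl1, Fbxo31 and Map1lc3b. The other forkhead genes of this cluster were also lower. Foxf1, a factor of visceral and splanchnic mesoderm, had 1447, 1386 and 1363 counts in WT against 498, 510 and 596 in Nono-KO, a log2 fold change of -1.32 (SE 0.09, adjusted p = 2.52e-07). Foxl1, a mesenchymal factor, had 195, 143 and 123 counts in WT against 49, 48 and 45 in Nono-KO, a log2 fold change of -1.61 (SE 0.20, adjusted p = 1.99e-05).

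The genes that lie between and beside these forkhead genes did not share one direction. Mthfsd, located between Foxf1 and Foxc2, was higher, with 281, 208 and 207 counts in WT against 342, 334 and 343 in Nono-KO (log2 fold change 0.63, SE 0.13, adjusted p = 0.000963). Fbxo31, on the far side of Foxl1, was also higher by 0.67 (SE 0.10) on the log2 scale, as was Cox4i1 by 0.48 (SE 0.08). Irf8 was lower (-0.78, SE 0.19) and Map1lc3b was lower (-0.20, SE 0.08). In the cluster of 8 genes the 3 forkhead genes thus had the 3 largest falls, and 3 of the 5 others were higher.

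Around Foxc1 the order is Gmds, Foxc1, Foxf2, Foxq1, Exoc2 and Uqcrfs1, and the forkhead genes differed little. Foxf2 had 1145, 880 and 928 counts in WT against 735, 762 and 852 in Nono-KO, without overlap after scaling for library size, and was lower, with a log2 fold change of -0.25 (SE 0.10, adjusted p = 0.0318). That call was lost on leaving out WT replicate 1 (-0.19, adjusted p = 0.0761), WT replicate 3 (-0.26, adjusted p = 0.0533) or Nono-KO replicate 1 (-0.24, adjusted p = 0.112), 2 (-0.23, adjusted p = 0.129) or 3 (-0.25, adjusted p = 0.0699). It was also lost with DESeq2 size factors (-0.20, adjusted p = 0.0797), with the DESeq2 test (-0.22, adjusted p = 0.0861) and with the replicate number as a block (-0.25, adjusted p = 0.0640). Foxq1 had 154, 53 and 70 counts in WT against 76, 87 and 111 in Nono-KO, so WT replicate 1 was the highest and the other WT libraries the lowest. Its log2 fold change was 0.07 (SE 0.31, adjusted p = 0.848) with all libraries and 0.59 (adjusted p = 0.0238) without WT replicate 1. Of the other genes, Gmds did not pass the test (0.17, SE 0.11), Exoc2 was lower (-1.07, SE 0.13) and Uqcrfs1 was higher (0.46, SE 0.08).

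**Figure D2:**
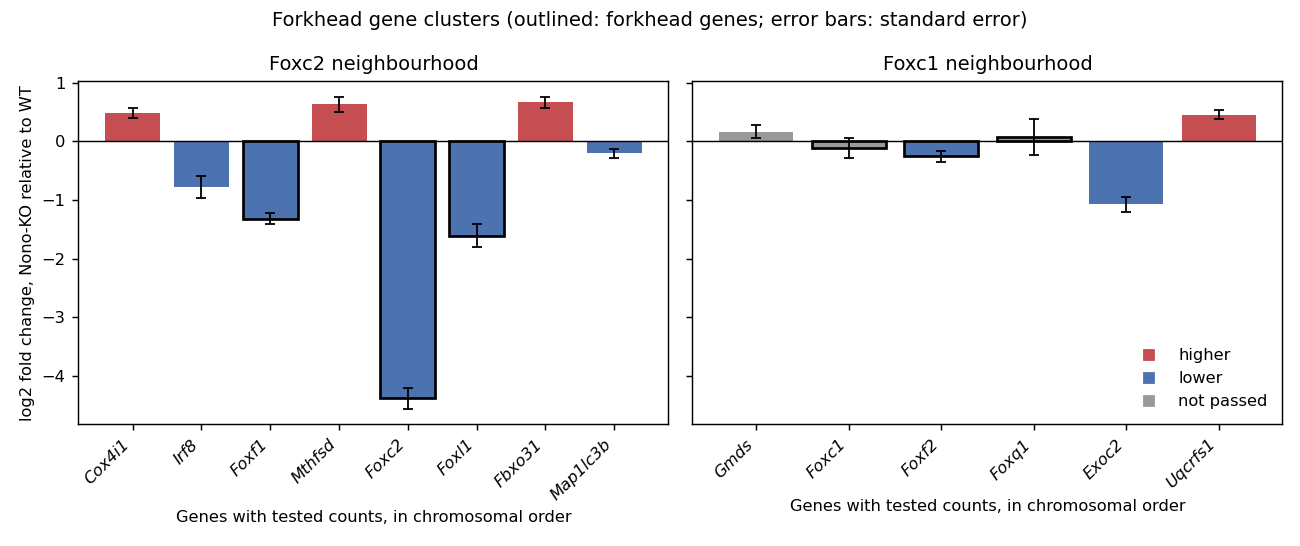
Log2 fold change of each tested gene around Foxc2 (left) and Foxc1 (right), in chromosomal order and not to scale in distance, with standard errors. Outlined bars are forkhead genes, and red, blue and grey mark genes that were higher, lower or did not pass the test. Foxf1 at -1.32 and Foxc2 at -4.38 flank the higher Mthfsd, with Foxl1 at -1.61 beyond Foxc2, whereas Foxc1 and Foxq1 sit near 0.

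The 3 FoxO genes moved by unequal amounts and not in one direction. Foxo1, a FoxO factor known for insulin-controlled metabolism and for vessel growth, had 390, 339 and 420 counts in WT against 62, 77 and 88 in Nono-KO. All WT libraries were several times above all Nono-KO libraries. The mean level was 20.3 ± 2.73 CPM in WT and 4.19 ± 0.52 CPM in Nono-KO, 4.83-fold lower, with a log2 fold change of -2.27 (SE 0.16, 95% interval -2.62 to -1.92, adjusted p = 3.39e-07). A fall of at least 4-fold was seen in 426 of all tested genes, or 3.54%. RefSeq also lists a gene named Foxo1l that has no row in the count table, so how reads shared between it and Foxo1 were counted is uncertain.

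Foxo3, a factor of stress resistance and autophagy, had 733, 770 and 782 counts in WT against 471, 548 and 548 in Nono-KO. The groups did not overlap, and the WT libraries lay closer to the Nono-KO libraries than for Foxo1. The mean was 40.4 ± 3.59 CPM in WT and 29.0 ± 1.48 CPM in Nono-KO, a log2 fold change of -0.48 (SE 0.10, adjusted p = 0.0013). Foxo4, the X-linked FoxO gene, had 1407, 1277 and 1246 counts in WT against 1471, 1526 and 1508 in Nono-KO. It was the only one of the 10 genes that was higher, with every Nono-KO library above every WT library. The mean was 69.2 ± 0.87 CPM in WT and 83.6 ± 3.30 CPM in Nono-KO, a log2 fold change of 0.27 (SE 0.08, 95% interval 0.09 to 0.45, adjusted p = 0.00982). Without Nono-KO replicate 1 the Foxo4 difference was 0.26 and no longer passed the test (adjusted p = 0.0594). The scaling of the libraries moved the median of all genes from -0.11 to 0.00, and Foxo4 was higher under each scaling tried.

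Ratios within a library do not depend on the scaling between libraries. The log2 ratio of Foxo1 to Foxo3 counts was -0.91, -1.18 and -0.90 in WT and -2.92, -2.82 and -2.63 in Nono-KO, a drop by 1.79. The ratio of Foxo4 to Foxo3 was 0.94, 0.73 and 0.67 in WT and 1.64, 1.48 and 1.46 in Nono-KO, a rise of 0.75. The ratio of Foxo1 to Foxo4 dropped by 2.54, from -1.78 ± 0.18 to -4.32 ± 0.23. The makeup of FoxO transcripts was therefore shifted from Foxo1 towards Foxo4 in every Nono-KO library. The remaining FoxO gene, Foxo6, had 2 counts in Nono-KO replicate 1 and 0 in the other libraries.

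The promoter windows of Foxo1 and Foxo4 are shown because these FoxO genes moved in opposite directions. Each is the RefSeq GRCr8 sequence of 300 bases, from 250 before to 50 after the annotated start, on the gene's strand from 5′ to 3′, and 6 of the 10 genes had such a window. Capitals mark matches on either strand to any of 7 motifs that were searched: a forkhead motif, a CRE, an AP-1 motif, a TEAD motif, a CCAAT box, a GC box and an E-box. The forkhead motif was spelled GTAAACA and the CRE, which cyclic AMP factors bind, TGACGTCA. The AP-1 motif, bound by Fos and Jun proteins, was spelled TGANTCA, where N is any base, and the TEAD motif, bound by the factors of Hippo signalling, GGAATG. The GC box was spelled GGGCGG, and the E-box, the letters that Myc proteins read, was spelled CACGTG. No matches shared a base. The Foxo1 window lies at chr2:138462724-138463023 on the plus strand and the Foxo4 window at chrX:70425313-70425612 on the plus strand.
Foxo1: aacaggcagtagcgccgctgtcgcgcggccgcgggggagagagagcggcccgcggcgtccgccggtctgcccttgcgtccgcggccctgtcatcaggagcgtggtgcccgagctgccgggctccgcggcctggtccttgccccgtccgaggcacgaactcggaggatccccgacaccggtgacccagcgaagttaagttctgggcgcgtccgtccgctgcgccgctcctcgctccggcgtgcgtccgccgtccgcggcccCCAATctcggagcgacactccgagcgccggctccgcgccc
Foxo4: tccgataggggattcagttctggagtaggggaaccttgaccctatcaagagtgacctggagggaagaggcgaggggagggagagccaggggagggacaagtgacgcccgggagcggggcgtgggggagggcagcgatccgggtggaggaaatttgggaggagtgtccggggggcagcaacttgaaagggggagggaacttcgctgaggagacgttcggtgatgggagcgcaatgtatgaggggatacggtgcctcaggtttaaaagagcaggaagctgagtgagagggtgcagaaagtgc
The Foxo1 window holds 1 CCAAT, after the start, and 75.0% G and C, and the Foxo4 window holds none of the 7 motifs and 60.3% G and C. Over all 33469 RefSeq promoter windows of this length, 37.5% hold CCAAT and the median G and C content is 51.7%. A match is only a run of letters, and the lack of one says nothing about which factors bind there.

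Foxp1, a repressor with roles in heart muscle and lymphocyte development, was lower in Nono-KO. It had 1936, 2125 and 2154 counts in WT against 897, 1066 and 1145 in Nono-KO, with no overlap. The mean was 110 ± 12.2 CPM in WT and 57.5 ± 4.39 CPM in Nono-KO, a log2 fold change of -0.93 (SE 0.10, adjusted p = 9.28e-06). Its paralog Foxp4 had 1580, 1497 and 1801 counts in WT against 1708, 1962 and 1695 in Nono-KO, and the groups overlapped. The Foxp4 log2 fold change was 0.21 (SE 0.11, 95% interval -0.04 to 0.46, adjusted p = 0.119). The log2 ratio of Foxp1 to Foxp4 accordingly dropped by 1.14, from 0.35 ± 0.13 to -0.79 ± 0.20. The Foxp1 span overlaps Eif4e3 in RefSeq, whose log2 fold change was 0.38 (SE 0.22, adjusted p = 0.139), and reads from the shared stretch cannot be assigned from the table.

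The Foxp1 window is shown because it alone among the 6 windows holds a forkhead motif, which Foxp1 and the other members can bind. It lies at chr4:133353231-133353530 on the minus strand of GRCr8, with the same motifs in capitals.
Foxp1: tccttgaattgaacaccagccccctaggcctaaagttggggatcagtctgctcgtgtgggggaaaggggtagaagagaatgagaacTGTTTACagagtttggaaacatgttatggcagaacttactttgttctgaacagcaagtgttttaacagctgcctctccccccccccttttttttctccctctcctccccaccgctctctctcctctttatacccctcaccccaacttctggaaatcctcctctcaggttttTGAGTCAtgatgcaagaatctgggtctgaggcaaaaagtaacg
The forkhead match is on the reverse strand, with its first base 164 bases before the start, and an AP-1 match follows the start. Of all RefSeq promoter windows, 3.78% hold the forkhead motif and 7.33% the AP-1 motif. The windows of Foxc1, Foxn3 and Foxj3 hold GC box matches, a motif found in 33.1% of all windows.

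Foxk1, a repressor of autophagy genes and a regulator of glycolysis in muscle, had 1945, 1756 and 1974 counts in WT against 989, 1091 and 1162 in Nono-KO. Every WT library was above every Nono-KO library. The mean was 100.2 ± 8.50 CPM in WT and 60.03 ± 1.94 CPM in Nono-KO, a log2 fold change of -0.74 (SE 0.09, adjusted p = 1.96e-05). Foxk2, the other gene of this subfamily, had 1475, 1414 and 1449 counts in WT against 1187, 1320 and 1407 in Nono-KO, with overlap after scaling. The Foxk2 log2 fold change was -0.08 (SE 0.08, 95% interval -0.26 to 0.11, adjusted p = 0.418). Within libraries the log2 ratio of Foxk1 to Foxk2 was 0.40, 0.31 and 0.45 in WT and -0.26, -0.27 and -0.28 in Nono-KO, so it dropped by 0.66.

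Foxj3, which activates Mef2c in muscle, had 562, 616 and 650 counts in WT against 258, 275 and 290 in Nono-KO. The 3 Nono-KO libraries lay within 15.1 to 15.4 CPM and all below the WT libraries. The mean was 32.4 ± 4.13 CPM in WT and 15.3 ± 0.14 CPM in Nono-KO, a log2 fold change of -1.08 (SE 0.12, adjusted p = 9.07e-06). Its relative Foxj2 had 1240, 1158 and 1194 counts in WT against 977, 1039 and 1055 in Nono-KO. Foxj2 did not pass the test, with a log2 fold change of -0.15 (SE 0.08, 95% interval -0.33 to 0.03). The log2 ratio of Foxj3 to Foxj2 dropped by 0.92, from -0.98 ± 0.14 to -1.90 ± 0.03.

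Foxn3, a repressor linked to cell cycle checkpoints, had 209, 248 and 219 counts in WT against 73, 73 and 70 in Nono-KO. All WT libraries were above all Nono-KO libraries. The mean was 11.9 ± 1.45 CPM in WT and 4.01 ± 0.28 CPM in Nono-KO, 2.97-fold lower, with a log2 fold change of -1.57 (SE 0.16, adjusted p = 5.48e-06). In this subfamily both tested relatives were lower too. Foxn2 had 318, 473 and 430 counts in WT against 85, 74 and 56 in Nono-KO, a log2 fold change of -2.43 (SE 0.22). Foxn1, the factor of thymus and hair follicle epithelium, had 629, 424 and 481 counts in WT against 129, 128 and 127 in Nono-KO, a log2 fold change of -1.92 (SE 0.15). The log2 ratio of Foxn3 to Foxn2 rose by 0.86, from -0.84 ± 0.20 to 0.03 ± 0.27, as Foxn2 had the larger fall. RefSeq lists pseudogenes of Foxn2, Foxn3 and Foxk2, so reads of these genes may have been split or dropped in counting.

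The 8 paralog ratios were compared as a family with an exact two-sided permutation test over the libraries. With 3 libraries against 3 the smallest p it can give is 0.1, and each of the 8 ratios gave 0.1. The test therefore cannot pass 0.05 for any pair, adjusted or not. None of the 8 pairs overlapped between the groups, but neither did 75.1% of all tested genes taken singly. The share for ratios of other gene pairs was not computed. The Foxo1/Foxo4 ratio follows from Foxo1/Foxo3 and Foxo4/Foxo3, so the 8 ratios are not separate observations.

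**Figure D3:**
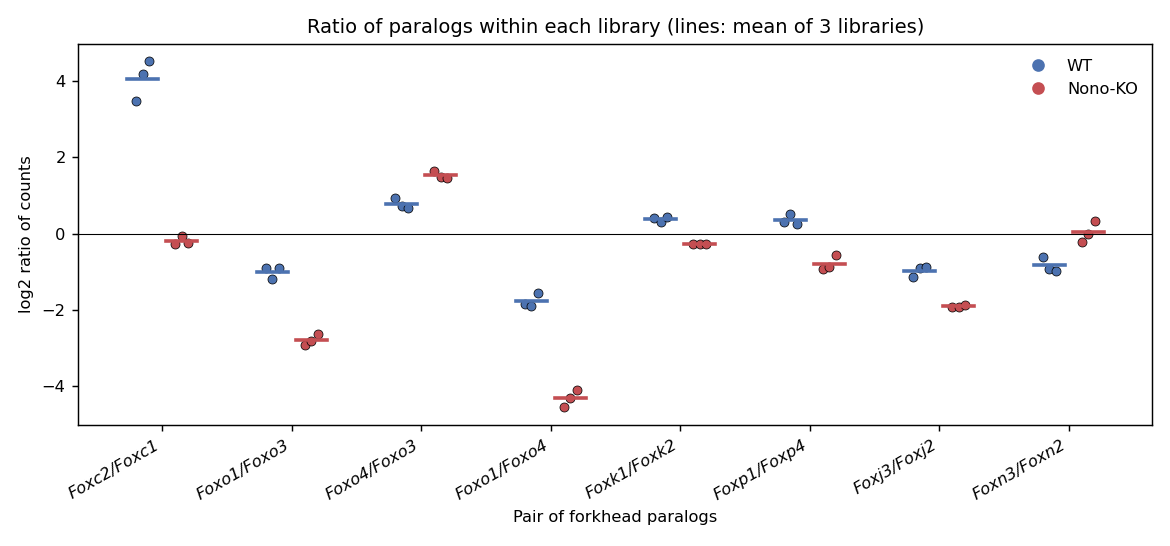
Log2 ratio of raw counts of 8 pairs of forkhead paralogs within each library, with lines at the means of 3 libraries. In each pair the WT and Nono-KO points are apart, from -0.66 for Foxk1/Foxk2 to -4.25 for Foxc2/Foxc1 among the ratios that dropped, and Foxo4/Foxo3 and Foxn3/Foxn2 rose.

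Foxm1, the factor that drives the genes of mitotic entry, was modestly lower. It had 1397, 996 and 1122 counts in WT against 799, 860 and 946 in Nono-KO, where WT replicate 1 was the highest library. The mean was 61.7 ± 8.15 CPM in WT and 48.2 ± 1.71 CPM in Nono-KO, 1.28-fold lower, with a log2 fold change of -0.36 (SE 0.11, 95% interval -0.59 to -0.13, adjusted p = 0.00956). Leaving out 1 library at a time gave -0.46 to -0.27, the latter without WT replicate 1, and the highest adjusted p over the fits tried was 0.0459. The span of Foxm1 overlaps Tex52, which had 52, 44 and 48 counts in WT against 16, 26 and 20 in Nono-KO and was lower, with a log2 fold change of -1.14 (SE 0.25). Tulp3, on the other side of Foxm1, was higher by 0.99 (SE 0.08).

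The forkhead family as a whole was then described. Of 45 forkhead genes listed for the rat, 31 had a row, 25 had enough counts to be tested, 6 were filtered out and 14 had no row. Among the 25, 15 were lower, 3 were higher and 7 did not pass the test. Outside the 10 genes, 7 of 15 tested were lower and 2 were higher, with a median log2 fold change of -0.15, where all tested genes had 38.1% lower and 34.2% higher. Besides Foxf1, Foxf2, Foxl1, Foxn1 and Foxn2, Foxd2 was lower (-1.38, SE 0.35), with 34, 32 and 28 counts in WT against 17, 6 and 11 in Nono-KO.

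The higher genes were both of very low count. Foxs1, a forkhead gene of pericytes and other perivascular cells, had 3, 3 and 0 counts in WT against 18, 36 and 17 in Nono-KO, and its totals of 6 and 71 give a ratio of 12.5 (exact 95% interval 5.45 to 35.1, counting error only). Foxh1, a partner of Smad proteins, had 6, 7 and 6 counts in WT against 15, 12 and 15 in Nono-KO, a ratio of totals of 2.33 (exact 95% interval 1.32 to 4.24). The WT counts of Foxs1 and Foxh1 alone would not have passed the filter on low counts. Foxa2 (0.35, adjusted p = 0.0515) and Foxp3 (0.60, adjusted p = 0.0841) did not pass the test. Without WT replicate 1, 6 of the other forkhead genes were higher instead of 2, among them Foxa2, Foxp3 and Foxq1, and without WT replicate 3 there were 4.

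Of the filtered genes, Foxj1, the factor of motile cilia, had 14 counts in all WT libraries and 45 in Nono-KO, a ratio of 3.38 (exact 95% interval 1.82 to 6.67). Foxa3 had 5 and 21 counts, a ratio of 4.42 (exact 95% interval 1.62 to 15.003). Foxa1 had 7 to 13 counts in each library of either group. Foxl3 and Foxn4 had at most 4 counts in any library.

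**Figure D4:**
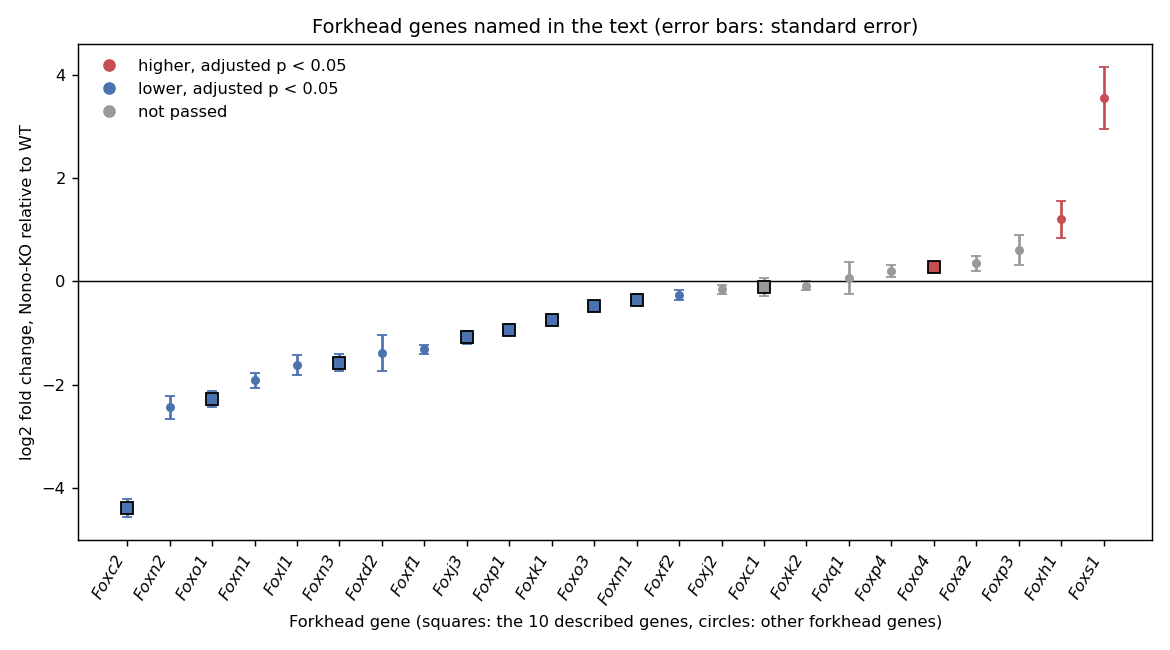
Log2 fold change of the tested forkhead genes named in the text, with standard errors, ordered from the largest fall (Foxc2, -4.38) to the largest rise (Foxs1, 3.56, which rests on 6 WT counts). Squares are the 10 described genes and circles are other forkhead genes. Blue, red and grey mark lower, higher and not passed at an adjusted p under 0.05.

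Genes known to regulate FoxO factors were examined as a list of 37, of which 36 were tested. Of these, 27 were lower, 6 were higher and 3 did not pass the test (38.1% lower and 34.2% higher among all tested genes), with a median log2 fold change of -0.74, against -0.05 over all genes. The grouping into classes given here was made after the values were seen. Of the PI 3-kinase subunits, which start the signal that inactivates FoxO, Pik3r1 (-2.67, SE 0.16), Pik3ca (-1.88, SE 0.17) and Pik3cb (-1.81, SE 0.23) were lower, while the regulatory subunit Pik3r2 was higher (1.07, SE 0.09). Pdpk1, the kinase upstream of Akt, was lower (-1.74, SE 0.15). Genes named here and below that are neither the most changed nor the most abundant of their list were chosen after their values were seen.

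The kinases that phosphorylate FoxO factors did not move together. Sgk1, a serum- and glucocorticoid-induced kinase, had 809, 1422 and 1084 counts in WT against 40, 39 and 46 in Nono-KO, which is the largest fall of the list. Its mean was 58.9 ± 17.9 CPM in WT and 2.32 ± 0.13 CPM in Nono-KO, a log2 fold change of -4.66 (SE 0.24, adjusted p = 7.21e-08). Akt1 was higher, with 525 ± 18.0 CPM in WT and 724 ± 30.9 CPM in Nono-KO and a log2 fold change of 0.46 (SE 0.08, adjusted p = 0.000174). Akt2 had a log2 fold change of 0.11 (SE 0.09, adjusted p = 0.262) and did not pass the test.

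The 14-3-3 proteins, which bind phosphorylated FoxO factors and keep them in the cytoplasm, were lower for 6 of 6 genes, with log2 fold changes of -1.51 to -0.29. Ywhaz, the most abundant by CPM, was at 619 ± 52.3 CPM in WT and 336 ± 38.5 CPM in Nono-KO (-0.88, SE 0.10). The acetyltransferases were lower for 3 of 3, with Ep300 at 62.3 ± 10.1 CPM in WT and 17.5 ± 1.76 CPM in Nono-KO (-1.84, SE 0.13). The sirtuins, which deacetylate FoxO factors, differed among themselves. Sirt1 was lower (-2.11, SE 0.31), while Sirt2 was higher (0.77, SE 0.09) and Sirt3 was higher, at 7.77 ± 0.73 CPM in WT and 27.3 ± 2.34 CPM in Nono-KO (1.81, SE 0.13).

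A list of 43 known FoxO target genes held members of both directions. Of 37 tested, 16 were lower, 13 were higher and 8 did not pass the test, shares near the 38.1% lower and 34.2% higher of all tested genes, and the median log2 fold change was -0.10. Ddit4, a stress-induced inhibitor of mTOR signalling, had 461, 561 and 523 counts in WT against 2367, 2549 and 2424 in Nono-KO, a log2 fold change of 2.32 (SE 0.11, adjusted p = 3.75e-08). Cdkn1a, which encodes the cell cycle inhibitor p21, rose from 211 ± 24.7 CPM to 691 ± 8.43 CPM, a log2 fold change of 1.71 (SE 0.10, adjusted p = 7.89e-08). Catalase (Cat), a defence against hydrogen peroxide, fell from 70.6 ± 6.84 CPM to 20.2 ± 0.45 CPM, a log2 fold change of -1.81 (SE 0.10). Trib1, a pseudokinase, had 2086, 2591 and 2616 counts in WT against 382, 418 and 444 in Nono-KO and was lower, with a log2 fold change of -2.49 (SE 0.13). Map1lc3b, an autophagosome protein, was slightly lower, with 294 ± 18.7 CPM in WT and 255 ± 3.76 CPM in Nono-KO (-0.20, SE 0.08, adjusted p = 0.0361).

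Classes within the FoxO targets, also formed after the values were seen, held members of both directions. Of 6 oxidant defence genes 3 were higher and 1 was lower, of 10 genes of autophagy, mitophagy and protein breakdown 3 were higher and 4 lower, and of 9 genes of insulin signalling and metabolism 2 were higher and 6 lower. The muscle ubiquitin ligases, textbook FoxO targets in atrophy, did not move together either. Trim63 was higher (1.27, SE 0.14), while Fbxo32, at 48, 40 and 40 counts in WT against 31, 36 and 34 in Nono-KO, did not pass the test (-0.27, SE 0.22, adjusted p = 0.295).

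All 30 genes of a Foxm1 target list were tested, and 17 were lower, 2 were higher and 11 did not pass, with 38.1% lower, 34.2% higher and 72.2% either among all tested genes. The median log2 fold change was -0.45, against -0.05 over all genes. Top2a, the topoisomerase of dividing cells, had 573, 653 and 433 counts in WT against 146, 157 and 128 in Nono-KO, a log2 fold change of -1.86 (SE 0.16, adjusted p = 1.51e-06). Ccna2, encoding cyclin A, had 777, 635 and 569 counts in WT against 197, 240 and 243 in Nono-KO (-1.47, SE 0.12, adjusted p = 9.90e-07). The kinetochore and checkpoint genes Cenpf (-1.66, SE 0.35), Bub1 (-1.64, SE 0.28) and Ttk (-1.45, SE 0.21) were lower as well. Plk1, a mitotic kinase, was at 136 ± 25.5 CPM in WT and 131 ± 6.66 CPM in Nono-KO (-0.06, SE 0.12, adjusted p = 0.693). Mybl2, which acts with Foxm1 on mitotic genes, was higher (0.38, SE 0.09, adjusted p = 0.00233). For 12 of the 30 genes the groups overlapped, against 2995 of all 12028 tested genes. Without WT replicate 1 the number of higher Foxm1 targets was 5 instead of 2. It was 1 without WT replicate 2, WT replicate 3, Nono-KO replicate 1 or Nono-KO replicate 2.

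Of 26 genes linked to Foxc1 and Foxc2 in vessels and mesenchyme, 21 had a row and 11 were tested, with 5 lower, 2 higher and 4 not passed. The share of all tested genes was 38.1% for lower and 34.2% for higher, and the median log2 fold change of the list was -0.30. Flt1, a receptor for vascular growth factors, had 3137, 5197 and 5053 counts in WT against 693, 752 and 749 in Nono-KO, a log2 fold change of -2.55 (SE 0.20, adjusted p = 1.51e-06). Cxcl12, a chemokine, was lower at 651 ± 30.3 CPM in WT and 356 ± 31.5 CPM in Nono-KO (-0.87, SE 0.09). The mesenchymal factors Prrx1 (-1.13, SE 0.12) and Twist1 (-0.83, SE 0.10) and the receptor Pdgfrb (-0.46, SE 0.08) were lower. Notch1, a receptor of cell fate, was higher, with 492, 528 and 614 counts in WT against 1785, 1851 and 1891 in Nono-KO (1.83, SE 0.12, adjusted p = 1.86e-07). Of the genes of this list that endothelial cells use, Kdr, Dll4, Prox1 and Cxcr4 had at most 2 counts in any library, while Gja4 (53 to 91 counts) and Flt1 were detected.

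Of 20 partners and targets of Foxk, Foxp and Foxj3 factors, 9 were lower, 8 were higher and 3 did not pass the test, close to the 38.1% lower and 34.2% higher of all tested genes. The median log2 fold change was -0.18. Mef2c, the muscle gene that Foxj3 activates, had 527, 692 and 546 counts in WT against 167, 176 and 206 in Nono-KO, a log2 fold change of -1.62 (SE 0.14, adjusted p = 1.71e-06). The Sin3 scaffolds, through which Foxk factors repress genes, moved in opposite directions, Sin3a lower (-1.20, SE 0.11) and Sin3b higher (0.64, SE 0.08). Of the corepressor genes in the list, Ctbp2 (-1.36, SE 0.13) and Ctbp1 (-0.33, SE 0.08) were lower, as were Mta2, Gatad2b, Hdac1 and Hdac2. Mta1 was higher (0.27, SE 0.10) and Gatad2a did not pass the test (0.10, SE 0.09). Of the glycolytic genes Hk2 was lower (-1.31, SE 0.13) and Pkm was higher (0.51, SE 0.09). The number of higher genes was 5 without WT replicate 2 or without Nono-KO replicate 2.

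**Figure D5:**
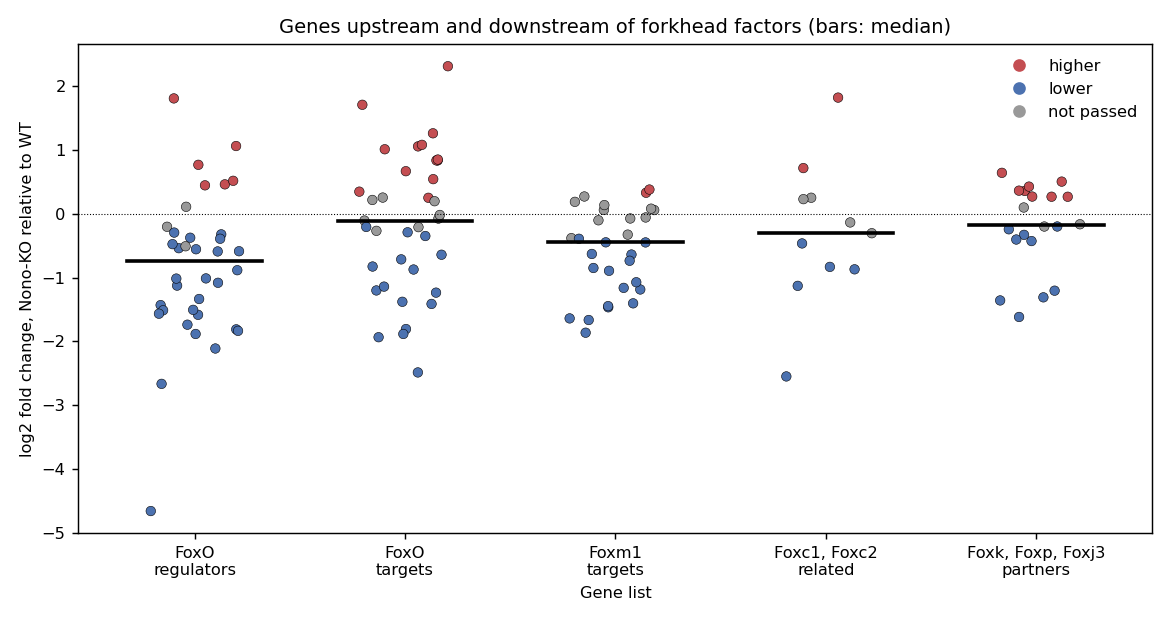
Log2 fold change of each tested gene of the 5 lists of regulators, targets and partners, with bars at the list medians. Points are genes, spread sideways only for legibility. The FoxO regulators have the lowest median (-0.74) and hold the gene with the largest fall, Sgk1 at -4.66, and the FoxO targets spread widely around a median of -0.10.

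The genes whose profiles over the 6 libraries lay nearest to those of 4 forkhead genes were listed by Euclidean distance of centred log2 CPM, among 11287 named genes. Nearest to Foxc2 were Sgk1 (distance 0.47), Tspan18 (0.50) and Hivep2 (0.53), and Tspan18 had a log2 fold change of -4.79 (SE 0.19). Nearest to Foxo1 were Phlpp1, a phosphatase of Akt (0.31), Ttc39b (0.31) and Antxr2 (0.32), and Phlpp1 went from 85.2 ± 8.65 CPM in WT to 17.8 ± 0.82 CPM in Nono-KO. Among the nearest to Foxm1 were the insulin receptor substrate Irs2 (0.09) and Tmem260 (0.14), and nearest to Foxc1 were Oard1 (0.05), Vamp4 (0.10) and Snx1 (0.12). The distances are descriptions over 6 libraries that share 1 contrast, and they were not tested.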

How the data were processed

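RNA of rat H9c2 WT and Nono-KO cells was sequenced, 3 libraries each, from stranded mRNA libraries. The authors deposited raw counts per gene symbol, unscaled, 1 column per library. Tools in the submitters' processing notes are HISAT2, Trimmomatic and HTSeq, with mRatBN7.2 as the build, whereas the study's methods name Bowtie2 and Rn6. Neither the annotation nor how HTSeq treated strand is given in the sources used here. Each library was mapped to its group by the submitters' labels. The study calls the replicates biological, and the labels do not say whether they came from separate cultures, so p-values reflect only the spread among these libraries, which may be technical. ATAC-seq was not analysed here.

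Counts were tested in R 4.3.3 with the quasi-likelihood test of edgeR 4.0.16 (robust, TMM scaling, default filterByExpr filter with a minimum count of 10), which kept 12028 of 16319 genes, and Benjamini-Hochberg adjustment over all of them. A gene is called lower or higher at an adjusted p under 0.05. Log2 fold changes compare Nono-KO with WT, CPM is TMM-scaled, SE is the absolute log2 fold change over the square root of F, and paralog ratios used a pseudocount of 0.5. The tests were checked on simulated counts. Alternatives were DESeq2 1.42.0, other scalings and filters, a replicate block, the study's thresholds, a ratio pseudocount of 1 and leaving out each library. At these depths a gene with a few counts has no precise fold change, and intervals on counts cover counting error only.

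The members and the gene lists were chosen with earlier results of these data known. The text names every forkhead gene with a row, and from each list the 2 most abundant genes and up to 5 significant ones of largest change that reach 5 CPM in a group, the 3 nearest profiles of Foxc1, Foxc2, Foxo1 and Foxm1, and RefSeq neighbours. A few genes that this rule covers are not reported here. RefSeq promoter windows and gene order are of GRCr8, not the build of the counts, and gene order was used without coordinates.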

Additional observations from a re-analysis of the deposited data

How the results depend on the processing

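The 8 lower forkhead genes stayed 8 under DESeq2, the other scalings and filters and each left-out library, and the higher one, Foxo4, was lost (0 genes) without Nono-KO replicate 1. The study's thresholds left 4 lower and 0 higher of the 10 genes, 2252 lower and 1294 higher of all genes, 17 and 2 of the FoxO regulators, 9 and 6 of the FoxO targets, 8 and 0 of the Foxm1 targets, 2 and 1 of the Foxc-related genes, and 4 and 0 of the partners. The other higher forkhead genes numbered 1 with a filter of 1 CPM and 4 with no filter, against 2. The higher Foxm1 targets numbered 4 with DESeq2 size factors and 1 with scaling by total counts, against 2. Leaving out 1 library gave 0 to 1 higher of the 10 genes, 3 to 6 other higher forkhead genes, 1 to 5 higher Foxm1 targets and 5 to 8 higher partners. Foxq1 turned from 0.07 to -0.02 without Nono-KO replicate 3, -0.20 without WT replicate 2 and -0.06 without WT replicate 3, with 0.59 without WT replicate 1, and Foxh1 did not pass the test with DESeq2 (1.25, adjusted p = 0.0941). Why these values moved was not tested beyond the fewer libraries, genes or stricter thresholds of each alternative.

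Libraries of the same number did not deviate together (r = 0.05, -0.16 and -0.19), so no pairing by number was seen. With 3 libraries per group a weak shared effect could be missed, so whether the numbers pair the samples stays unknown. With the replicate number as a block, 8 of the 10 genes were lower and 1 higher, and 4443 and 3944 of all genes, against 4578 and 4108 without it. Depth limits the forkhead genes with a few counts, Foxs1, Foxh1, Foxd2 and the filtered ones.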
